A study of Mus musculus with 6 samples.

Results

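The genes described here encode the proteins of the cytosolic ribosome. They were taken as every gene on the array whose mouse symbol is Rpl or Rps followed by a number, with a suffix a, l, x or p or none. The S6 kinase genes and pseudogenes were left out. This gave 76 of the 20887 named genes on the array, with 158 of its 55681 probes. Of these, 73 genes with 153 probes were tested, among 14586 genes and 29003 probes in all. The tested genes comprise 29 of the small (40S) subunit, 43 of the large (60S) subunit, among which the copy Rpl32l is counted, and the paralog Rps27l. The paralogs Rpl10l, Rpl39l and Rpl3l were on the array but were not tested, since their probes were not well above background on all 3 arrays of either group.

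The cells came from kidneys of salt-stressed C57BL/6 mice at postnatal day 1 and were sorted by flow cytometry for GFP and tdTomato, which mark derivatives of the ureteric bud, the future collecting duct. MUT pools 1 to 3 were Hoxb7cre+; R26RtdTomato; Bdkrb2f/f, and WT pools 1 to 3 were Hoxb7cre+; R26RtdTomato; Bdkrb2+/+. Both groups thus carried the Cre transgene, which is driven by the Hoxb7 promoter, and the tdTomato reporter, and they differed in Bdkrb2, which encodes bradykinin receptor B2. The sources used here do not say how many animals made up a pool. Each pool was labelled in Cy5 and hybridised to an Agilent oligonucleotide array against WT pool 1 in Cy3. Every value below is therefore a log2 ratio to WT pool 1 (shortened to log2 ratio), or a difference of mean log2 ratios, MUT minus WT (shortened to log2 difference). On its own array WT pool 1 was set against the same RNA.

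A ribosome is built from ribosomal RNA and about equal amounts of each of its proteins, and cells keep the messenger RNAs of these proteins among their most abundant. Most of these messenger RNAs begin with a C and a run of C and T bases, the 5′ terminal oligopyrimidine (TOP) tract, through which mTORC1 and the binding protein Larp1 control their translation together. Proteins made in excess of ribosomal RNA are degraded. Because the steady messenger RNA level is only one step in this control, an array measures it and not the output of ribosomes.

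On each array 27022 to 31314 probes stood well above background in Cy5, no spot was saturated, and precision is limited by having 3 arrays in each group. The single probe of Bdkrb2 (1 probe) stayed near background on all 6 arrays and so gave no check of the labels. Its log2 ratios were -0.02, 0.05 and -0.08 in MUT pools 1 to 3 and 0.12, 0.09 and -0.16 in WT pools 1 to 3. Ureteric lineage markers were well above background on all arrays of both groups, but 12 of the 14 tested were lower in MUT, with a median log2 difference of -1.58. All 8 tested principal cell markers and all 8 intercalated cell markers were also lower, with medians of -1.97 and -2.43. Markers of other cells moved with genotype as well. Nephron progenitor markers were higher (6 of 7, median 2.12), as were renal stroma markers (8 of 10, median 1.95) and leukocyte markers (6 of 7, with the seventh lower, median 1.23). Erythroid markers were lower (7 of 7, median -2.46), as were those of endothelium (7 of 7, median -1.04), the loop of Henle and distal tubule (6 of 6, median -2.65) and the proximal tubule (3 of 6, median -0.75), while 1 of 5 podocyte markers was higher (median 0.16). These counts are from the loess fit, in which 14% of all tested genes were called higher and 18.9% lower. With spike-in levelling after loess (described below) the proximal tubule median turned to 0.20 and the endothelium median was -0.09, with no marker of either list called. Of the ureteric lineage markers 6 were then lower and 1 higher. The medians of the lists other than the proximal tubule kept their sign, but counts of lower calls shrank. In such bulk samples fewer cells of a type and less RNA per cell cannot be told apart. The part of cell composition in the ribosomal protein values was not tested.

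With loess scaling, ribosomal protein messenger RNAs differed little between the genotypes. Their median difference was larger with median centring (0.63) and with spike-in levelling (1.07 after loess, 1.27 without it), as described below. The values in this paragraph are from the loess fit. Of the 73 tested genes 1 was called higher in MUT and 0 lower by limma with Benjamini-Hochberg adjustment over all tested probes at 0.05. Over all 14586 tested genes 32.9% were called, 14% as higher and 18.9% as lower. At an unadjusted limma p under 0.05 the test took 10 of the 73 genes (13.7%), all of them higher in MUT, against 46.0% of all tested genes. The log2 differences lay between -0.20 and 0.43, which is at most 1.34-fold higher and 1.15-fold lower in MUT. The difference was smaller than 0.25 in size at 61 of the 73 genes (83.6%), compared with 45.9% of all tested genes. The standard error of a gene's difference was 0.09 to 0.16. For 64 genes the 95% interval of the difference lay within 1.5-fold either way, and over all members these intervals reached from -0.52 to 0.80.

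The small differences leaned to one side. The log2 difference was positive at 60 of the 73 genes (82.2%) and negative at 13, whereas 48.3% of all tested genes had a positive difference. The median over the members was 0.11, or 1.08-fold (quartiles 0.04 and 0.21, SD over genes 0.14). Over all tested genes the median was -0.02 (quartiles -0.32 and 0.24, SD 0.59). The members thus lay in a narrow band above the centre of the distribution. For 20 members (27.4%) all MUT pools lay above all WT pools, compared with 24.1% of all tested genes. For 1 member, Rpl31, all MUT pools lay below, compared with 28.4% of all tested genes. The pools of the other 52 members overlapped between the groups.

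On each array the members' median log2 ratio lay above that of the other genes, but in WT pool 1 only just (0.05 against 0.03). On that array the SD was 0.15 over members and 0.15 over other genes, so the members formed no narrow band there. The median log2 ratio of the 73 members was 0.28, 0.23 and 0.20 in MUT pools 1 to 3, against 0.05, 0.20 and 0.05 in WT pools 1 to 3. The groups thus did not overlap in this median, but WT pool 2 lay just under MUT pool 3, with values of 0.197 and 0.200 before further rounding. In MUT pools 60, 66 and 60 members had a ratio above 0, compared with 45, 66 and 44 members in WT pools. MUT pool 1 had the widest spread over members (SD 0.31, against 0.19 and 0.21 in MUT pools 2 and 3), and this SD was 0.15, 0.17 and 0.17 in WT pools 1 to 3. Since WT pool 1 is the same RNA in both dyes, its SD of 0.15 is the spread that dye and spot noise gave these probes. On the slide, row 2 held WT pools 2 and 3, and row 1 held the rest. With the row as a block the row term takes up WT pools 2 and 3, so MUT is set against WT pool 1 alone. The median difference was then 0.17. This fit cannot separate slide row from differences between the WT pools. Without WT pool 2 the median was 0.17 as well, with 66 of 74 members positive and none called.

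**Figure D1:**
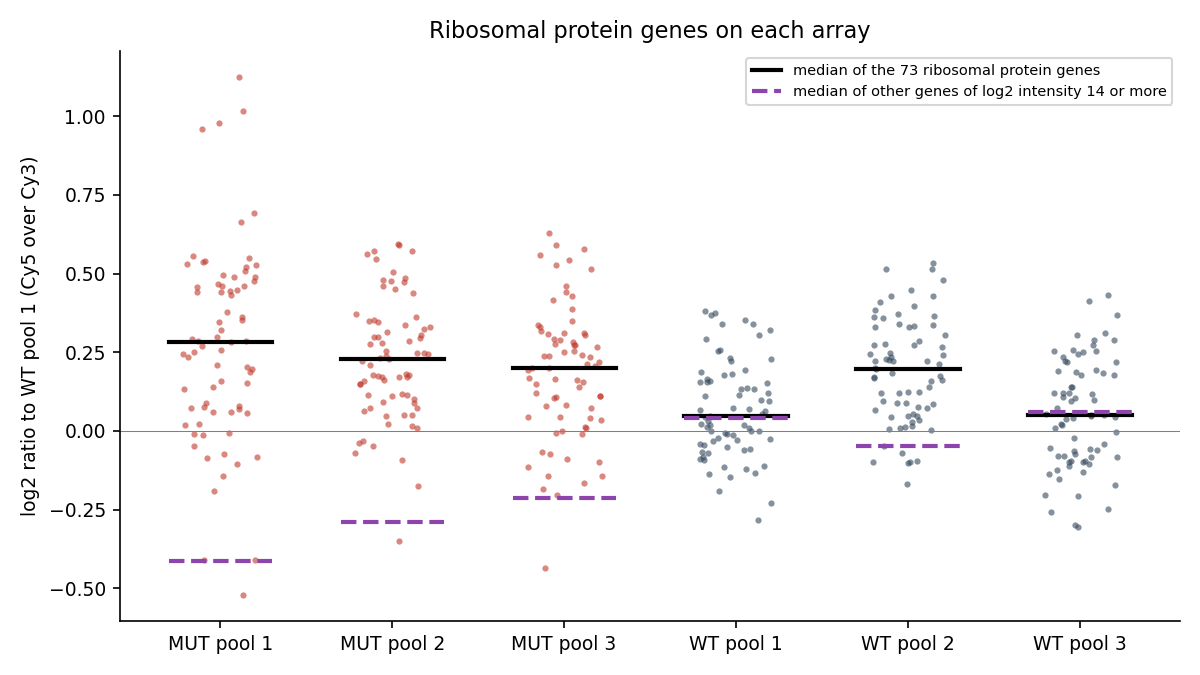
Log2 ratio to WT pool 1 (vertical axis) of each of the 73 ribosomal protein genes (points) on the 6 arrays, with solid lines at their medians and dashed lines at the medians of other genes of log2 intensity 14 or more. The medians of MUT pools 1 to 3 (0.28, 0.23 and 0.20) lie above those of WT pools 1 to 3 (0.05, 0.20 and 0.05), WT pool 2 only just, and the points of MUT pool 1 are spread the most.

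Set against intensity, the members occupied the bright end of the array and did not follow the other genes there. Their mean log2 intensity over both channels lay between 13.2 and 17.2 with a median of 15.9, compared with a median of 9.37 over all tested genes, and the dimmest member was brighter than 94.6% of tested genes. Intensity is a property of the probe as well as of the messenger RNA, so it is used here only to place genes along the array's range. Of the 457 genes at a log2 intensity of 14 or more, 72 were ribosomal protein genes (15.8%), and of the 94 genes at 16 or more they were 35 (37.2%). The other 385 genes at 14 or more had a median log2 difference of -0.27 (SD 0.68), and 45.2% of them were called, 16 as higher and 158 as lower. By array the median log2 ratio of these other bright genes was -0.41, -0.29 and -0.21 in MUT pools 1 to 3, against 0.04, -0.05 and 0.06 in WT pools 1 to 3, opposite in sign to the members in every MUT pool. The median of all genes outside the family declined with intensity, at 0.04 in the bin from 6 to 8, 0.01 from 8 to 10, -0.05 from 10 to 12, -0.16 from 12 to 14 and -0.35 from 14 to 16. It was -0.03 from 16 to 18, where 59 such genes remained. The family's median was 0.11 from 14 to 16 (37 genes) and 0.13 from 16 to 18 (35 genes), and so was not lower in the brighter of these bins. Spearman's rho between intensity and difference was -0.05 across the 73 genes at their brightest probes and -0.23 across all 153 tested member probes, which share arrays and genes and are no replicates of one another. The median over these probes was 0.18 from 6 to 8 (6 probes), 0.23 from 8 to 10 (4 probes) and 0.28 from 10 to 12. It was 0.18 from 12 to 14, 0.16 from 14 to 16 and 0.14 from 16 to 18. The family's probe medians thus fell with intensity from the bin of 10 to 12 upwards, but the dimmest bins, with few probes, lay below that bin.

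**Figure D2:**
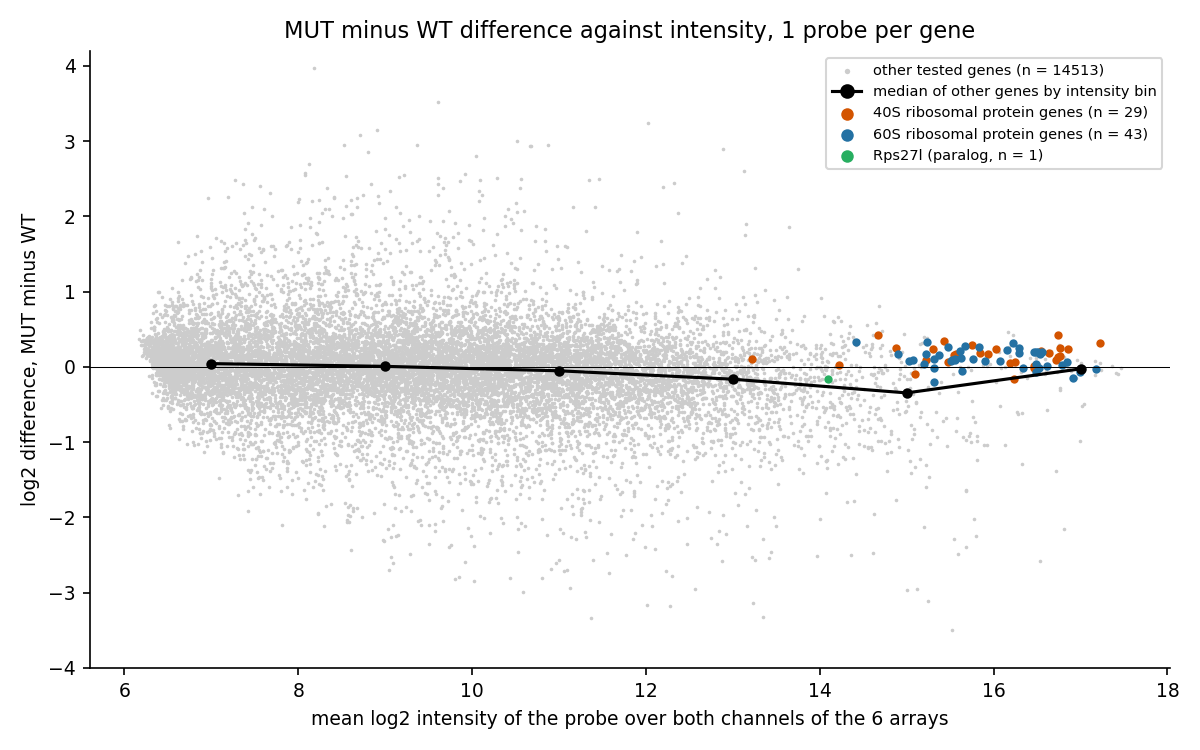
Log2 difference, MUT minus WT (vertical axis), against mean log2 intensity over the 6 arrays (horizontal axis) for all tested genes, with ribosomal protein genes marked and medians by intensity bin drawn. The ribosomal protein genes form a tight group near 0.11 at the bright end, where the median of the other genes is -0.35 in the bin from 14 to 16.

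Because a within-array loess curve is set by whatever genes are at each intensity, the direction was followed through other scalings. With the ribosomal protein probes given no weight in the loess curve the median difference was 0.15 and 1 member was called. With each array centred on its median, and no correction for intensity, the median over members was 0.63 while the median of all genes was 0.25. Under this scaling all 73 members were positive and 36 were called higher and 0 lower, compared with 18.2% of all genes called higher. With the arrays levelled on their spike-in controls after loess the median of all genes was 0.94, that of the members 1.07, and 70 members were called higher, compared with 62.3% of all genes. With the spike-in controls and no loess, an alternative chosen after seeing the data, these values were 0.89 and 1.27, and 73 members were called higher, compared with 58.8% of all genes. Each levelling rests on 1 median spike-in log2 ratio per array, taken relative to the mean over arrays. After loess it was -0.71, -0.55 and -0.18 in MUT pools 1 to 3, against 0.02, 0.39 and 1.01 in WT pools. The pools of a group thus differed widely in this level. Relative to all genes the members' median was thus higher by 0.13 with loess, levelled on the spike-in controls or not, by 0.16 with the ribosomal protein probes at weight 0, and by 0.38 with either scaling without loess. The size of the shift and the number of calls depended on the scaling, and the direction of the median did not.

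**Figure D3:**
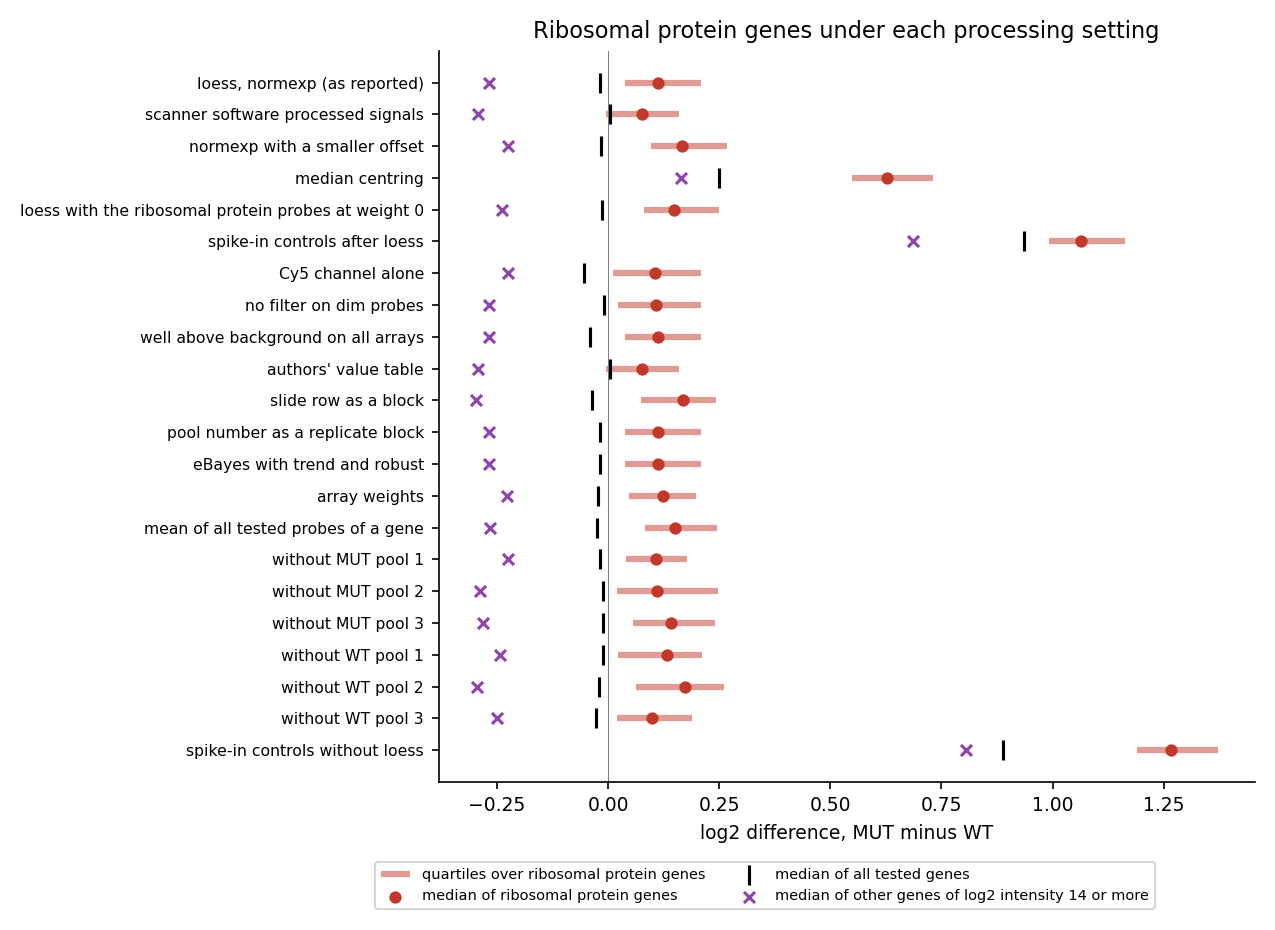
Median log2 difference, MUT minus WT (horizontal axis), of the ribosomal protein genes under each processing setting (rows), with their quartiles as bars, beside the medians of all tested genes and of other genes of log2 intensity 14 or more. The ribosomal protein median lies right of both others in every row, and all 3 move together where the scaling changes.

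The subunits had similar values. The 29 members of the small subunit had a median log2 difference of 0.17 (SD over genes 0.14, from -0.17 to 0.43), and 26 were positive. The 43 members of the large subunit had a median of 0.10 (SD 0.12, from -0.20 to 0.33), and 34 were positive. Each subunit's range covered most of the other's, and the difference between them was not tested. By array the small subunit medians were 0.32, 0.23 and 0.21 in MUT pools 1 to 3, against 0.07, 0.21 and 0.05 in WT pools 1 to 3. The large subunit medians were 0.25, 0.23 and 0.20 in MUT pools, against 0.05, 0.20 and 0.05 in WT pools. In both subunits WT pool 2 lay just under the lowest MUT pool, and only MUT pool 1 separated the subunits by more than 0.05.

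Bases around the annotated start were examined because the family is known for TOP messenger RNAs. RefSeq promoter sequences of GRCm38.p6 were matched for 57 of the 76 genes. The tract was searched on the sense strand as a C within 10 bases of the annotated start followed by 4 or more bases that are each C or T. It was present in 38 of 57 genes (66.7%), compared with 34.4% of the 27025 genes in the table. With the C placed exactly on the annotated start the counts were 13 of 57 (22.8%), compared with 3.01%. Of the tested genes, the 35 with a tract had a median log2 difference of 0.11 and the 19 without had 0.07. The windows below run 5′ to 3′ from 10 bases before the start, over 30 bases, with the tract in capitals. They show members from the top and the bottom of the range of differences.
Rps2: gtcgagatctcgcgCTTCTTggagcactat
Rpl12: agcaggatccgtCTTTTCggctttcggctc
Rps15a: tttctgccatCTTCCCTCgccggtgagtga
Rpl13a: cctgcgacaagaCCTCCTCCTTTCCCaggc
Rpl35: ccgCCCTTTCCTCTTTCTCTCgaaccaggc
Rpl31: tcctcgCCTCCCCgtgacccggaagttgta
Rps4x: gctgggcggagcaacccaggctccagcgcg
They lie at chr17:24720053-24720082 (plus strand) for Rps2, chr2:32961702-32961731 (plus) for Rpl12, chr7:118116128-118116157 (minus) for Rps15a, chr7:45128726-45128755 (minus) for Rpl13a, chr2:39005112-39005141 (minus) for Rpl35, chr1:39367841-39367870 (plus) for Rpl31 and chrX:102189372-102189401 (minus) for Rps4x. Rpl31 and Rpl35, with negative differences, and Rps2, Rpl12 and Rps15a, with positive ones, all carried a tract. The printed windows are a choice and hold more tracts than the other named members. Of those, Rpl5, Rpl10 and Rpl11, with positive differences, and Rpl37a and Rpl41, with negative ones, had no tract. Rps19, Rps24 and Rps27l had a tract at some of their annotated starts only. Rps4x, the member called, had none in its window, which says only that these letters are absent there.

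A further motif was searched on both strands of the promoter sequence, from 250 bases before to 50 bases after the start. CCGGAAGT, the letters that Ets family factors bind, occurred in 10 of 57 member promoters (17.5%) and in 4.31% of all 27025 genes' promoters. It stands in the Rpl31 window above, in small letters after the tract. Read on the other strand CCGGAAGT contains a C followed by TTCC, so near the start it can overlap the tract. The 10 tested members that hold it had a median log2 difference of 0.08, and the 44 without had 0.11.

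Among proteins of the small subunit, Rps4x was the one member called. It is the X-linked gene of a protein of the 40S body. Its log2 ratios were 0.43, 0.15 and 0.01 in MUT pools 1 to 3, against -0.28, -0.10 and -0.31 in WT pools 1 to 3. All MUT pools lay above all WT pools, although the MUT pools ranged more widely. The group means were 0.20 ± 0.21 in MUT and -0.23 ± 0.11 in WT (SD, n = 3 each), a difference of 0.43 ± 0.13 (SE), 1.34-fold, with a limma adjusted p of 0.0499. The call sat at the threshold and was made in 10 of 21 alternative settings. These include median centring and the spike-in scalings after and without loess, where 36, 70 and 73 members were called higher. The lowest limma adjusted p, 0.000305, came from the spike-in controls without loess. Of the 6 fits that leave out 1 pool, only the one without MUT pool 3 kept the Rps4x call. The others gave limma adjusted p between 0.0593 and 0.171.

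Rps14, a protein of the 40S platform at the messenger RNA exit, had the brightest probe of the family. Its log2 ratios were 1.13, 0.59 and 0.58 in MUT pools, against 0.38, 0.53 and 0.41 in WT pools. MUT pool 1 was the highest, and the other MUT pools lay only just above WT pool 2. Its ratio of 0.38 in WT pool 1, a comparison of that RNA with itself, shows that this probe gave a dye difference of its own. The difference between genotypes was 0.32 ± 0.16 (limma adjusted p = 0.177), and with the Cy5 channel alone it was -0.14.

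Rps2, which lines the messenger RNA entry channel, had log2 ratios of 0.44, 0.07 and 0.54 in MUT pools, against -0.11, 0.09 and 0.05 in WT pools. MUT pool 2 fell within the range of the WT pools, and the difference was 0.34 ± 0.14 (limma adjusted p = 0.116). Without MUT pool 2 it was 0.48, with an adjusted p of 0.0375. Rps15a, another protein of the 40S body, had ratios of 0.46, 0.18 and 0.04 in MUT pools, against -0.13, 0.08 and -0.14 in WT pools, with overlap at MUT pool 3. Its difference was 0.29 ± 0.13 (limma adjusted p = 0.148).

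At the low end of the small subunit stood Rps29, a small zinc-binding protein of the head. There the log2 ratios were -0.41, 0.18 and -0.10 in MUT pools, against 0.02, 0.05 and 0.11 in WT pools. MUT pools lay on both sides of the narrow WT range, and the difference was -0.17 ± 0.15 (limma adjusted p = 0.452). Rps19, the gene most often mutated in Diamond-Blackfan anaemia, in which red cell precursors fail, had ratios of -0.52, -0.03 and -0.18 in MUT pools, against -0.12, -0.10 and -0.25 in WT pools. The groups overlapped, and only MUT pool 1 was lower than every WT pool. The difference was -0.09 ± 0.14 (limma adjusted p = 0.667). Over 19 genes known from that anaemia the median difference was 0.10, with 14 positive and none called.

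In the large subunit, Rpl5 and Rpl11 form a particle with the 5S ribosomal RNA that, when free, binds Mdm2 and stabilises p53. The log2 ratios of Rpl5 were 0.46, 0.35 and 0.21 in MUT pools, against -0.09, 0.20 and -0.08 in WT pools. All MUT pools lay above the WT pools, MUT pool 3 just above WT pool 2. The difference was 0.33 ± 0.12, the largest of the large subunit (limma adjusted p = 0.085). Rpl11 had ratios of 0.56, 0.37 and 0.46 in MUT pools, against 0.32, 0.28 and 0.19 in WT pools. These groups did not overlap either, and the difference was 0.20 ± 0.10 (limma adjusted p = 0.186).

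Rpl12, which sits at the base of the stalk that recruits elongation factors, had log2 ratios of 0.69, 0.34 and 0.34 in MUT pools, against 0.05, 0.27 and 0.10 in WT pools. All MUT pools were above the WT pools, and the difference was 0.32 ± 0.13 (limma adjusted p = 0.116). The stalk proteins themselves lay on both sides of the family's median of 0.11, at 0.06 ± 0.11 for Rplp0, 0.12 ± 0.12 for Rplp1 and 0.21 ± 0.11 for Rplp2, none of them called.

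Rpl31, a protein beside the exit of the peptide tunnel, had the lowest difference of the family at its brightest probe. Its log2 ratios were -0.41, -0.09 and -0.17 in MUT pools, against -0.06, 0.04 and -0.05 in WT pools. All MUT pools lay below the WT pools, MUT pool 2 by a small margin, and the difference was -0.20 ± 0.11 (limma adjusted p = 0.243). Rpl35, also at the tunnel exit, had ratios of 0.25, 0.31 and 0.16 in MUT pools, against 0.29, 0.51 and 0.37 in WT pools. The pools overlapped, and the difference was -0.15 ± 0.10 (limma adjusted p = 0.334). The 9 tunnel exit genes together had a median of 0.09, with 7 positive, so these members with negative values did not stand for their neighbours.

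Several of the brightest members lay near 0. Rpl41, the smallest protein of the ribosome, had log2 ratios of 0.02, -0.05 and -0.07 in MUT pools, against -0.01, 0.07 and 0.05 in WT pools, a difference of -0.07 ± 0.09. Its 6 pools thus lay within 0.07 of 0. Rpl37a gave -0.03 ± 0.12 and Rpl10, which joins the large subunit in a late cytoplasmic step, gave 0.07 ± 0.09. Rpl8, near the peptidyl transferase centre, gave -0.06 ± 0.10, and Rpl13a, which also serves in a translational silencing complex, gave -0.05 ± 0.12 at its brightest probe. The pools of these genes overlapped between the groups, and none was called.

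**Figure D4:**
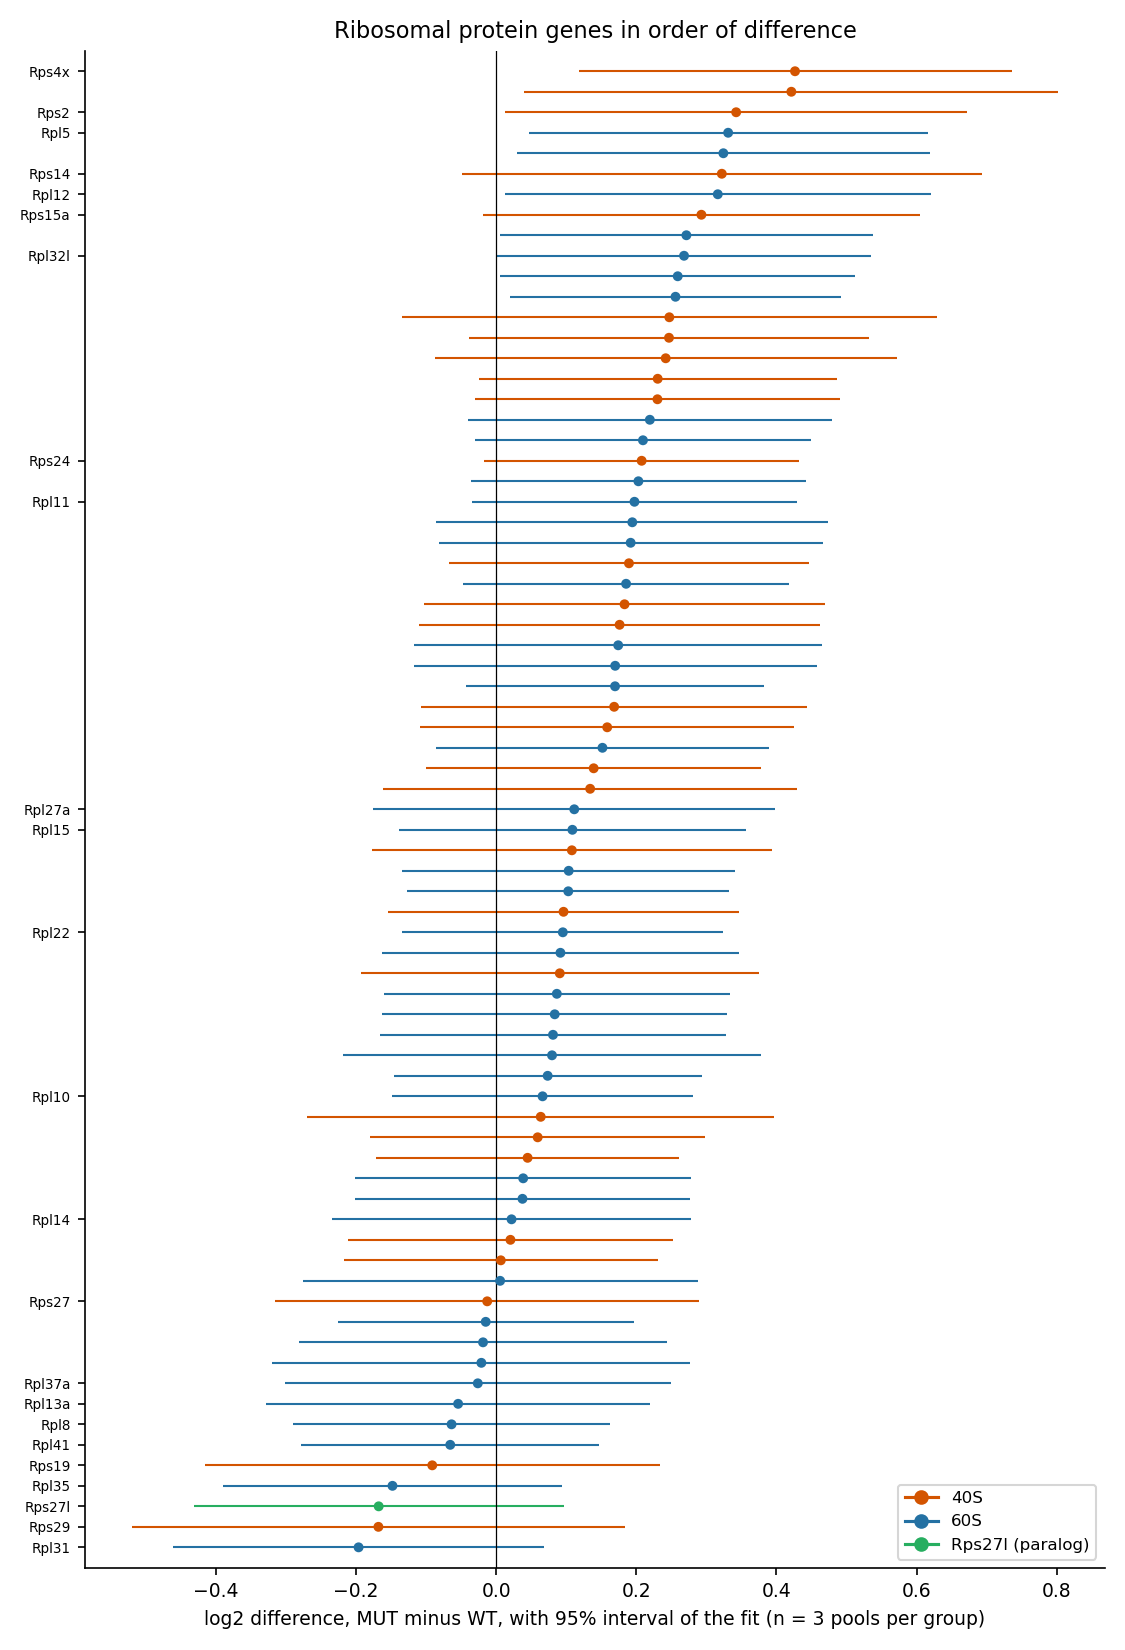
Log2 difference, MUT minus WT, of each of the 73 ribosomal protein genes at its brightest tested probe, ordered by value, with bars for the 95% interval of the limma fit, subunits marked and the genes named in the text labelled. Values run from 0.43 at Rps4x to -0.20 at Rpl31, 60 of them above 0, and the intervals of 63 genes include 0.

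Where the probes of a gene lay far apart in intensity, the dimmest probe mostly gave the larger value. Of 48 members with several tested probes 37 had all probes on the same side of 0, and the spread between probes of a gene was 0.11 at the median and under 0.25 at 36 genes. In 20 genes the brightest and the dimmest probe were at least 2 log2 units apart in intensity. The dimmest probe had the higher difference in 16 of them, and the median difference was 0.27 over the dimmest and 0.10 over the brightest probes. Of these dimmest probes 6 were called and of the brightest 0. Over all 153 tested member probes 9 were called higher and 0 lower, compared with 11.6% of all 29003 tested probes called higher. The 27 member probes below a log2 intensity of 14 had a median of 0.24, with 24 positive and 7 called (6 genes), and the other 126 had a median of 0.15 with 2 called. A count of called members therefore rests on which probe stands for a gene. With the mean of all tested probes of a gene, 4 members were called (Rps24, Rps4x, Rpl22 and Rps2, named because of this count) and the median was 0.15.

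Rpl31 shows the size of this dependence. Its dimmer probe had log2 ratios of 0.46, 0.52 and 0.49 in MUT pools, against -0.02, 0.14 and 0.08 in WT pools. The MUT pools were close together and well above the WT pools, and the difference of 0.42 (limma adjusted p = 0.0152) has the opposite sign to that of the brighter probe. The dimmer probe of Rpl14, a large subunit protein, had ratios of 0.81, 0.65 and 0.89 in MUT pools, against 0.15, 0.40 and 0.16 in WT pools, a difference of 0.55 (limma adjusted p = 0.012). Its brighter probe gave 0.02. Rpl22, which is found at the outer surface of the large subunit, gave 0.62 at its dimmer probe (limma adjusted p = 0.014) and 0.10 at its brighter one. At the dimmest probe Rpl15 gave 0.46, Rpl13a 0.41 and Rpl27a 0.35, each called, and at the brightest 0.11, -0.05 and 0.11. The files do not hold the probes' sequences, so whether a probe also binds a pseudogene copy or another transcript was not determined here.

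Rps24, singled out after its values were seen, had the largest difference of any member probe. Its protein belongs to the small subunit, and its 3 tested probes are annotated to 3 RefSeq transcripts of the gene, which are known to differ by alternative splicing at the 3′ end. The probe of NM_011297 had log2 ratios of 1.32, 1.22 and 1.26 in MUT pools, against 0.33, 0.34 and -0.02 in WT pools. All MUT pools lay far above the WT pools and close to each other, and the difference was 1.05 ± 0.12 (limma adjusted p = 0.00103). The probe of NM_207635, the brightest, gave 0.21 ± 0.10, and that of NM_207634 gave 0.27 ± 0.10, neither called. Where each probe lies in these transcripts was not determined, and the difference between the probes was not tested.

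**Figure D5:**
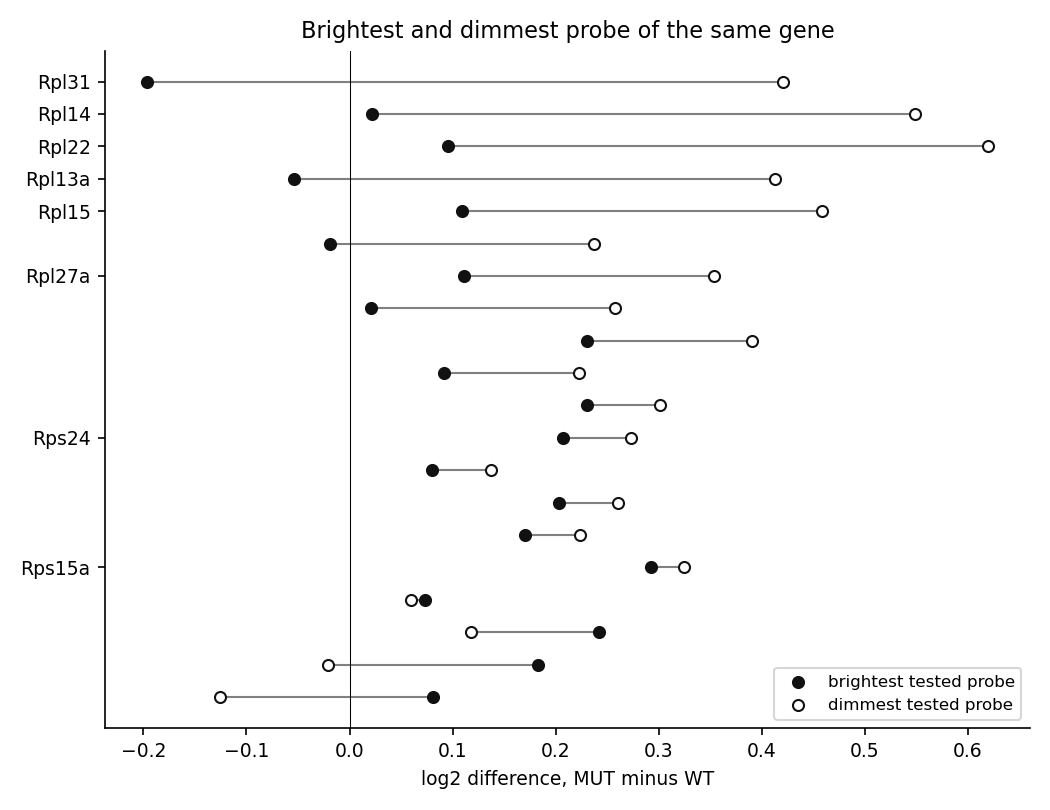
Log2 difference, MUT minus WT, of the dimmest and the brightest tested probe of the 20 ribosomal protein genes whose probes lie at least 2 log2 units apart in intensity, with a line for each gene and labels for the genes named in the text. The dimmest probe is the higher in 16 of the 20 genes, Rpl31 with the widest gap (0.42 against -0.20).

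Paralogs that the family's main members resemble were not called. Rps27l, a paralog of Rps27 that p53 induces, had log2 ratios of -0.11, -0.35 and -0.44 in MUT pools, against -0.12, -0.17 and -0.10 in WT pools. MUT pool 1 lay within the range of the WT pools, and the difference was -0.17 ± 0.11 (limma adjusted p = 0.315). Outside the symbol pattern, Rpl36al had ratios of -0.31, -0.26 and -0.40 in MUT pools, against -0.05, -0.06 and -0.01 in WT pools, a difference of -0.28 ± 0.09 with no overlap that did not pass (limma adjusted p = 0.063). Rps4l, a copy of Rps4x annotated as a transcribed pseudogene, gave -0.31 ± 0.13, Rpl22l1 gave -0.05 ± 0.11 and Rpl7l1 gave 0.01 ± 0.12. Of these 5 measured paralogs Rpl7l1 alone had a positive value. These copies are similar in sequence to the main genes, so cross-hybridisation was not tested.

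Ribosomal protein genes that the symbol pattern misses were also mostly near 0. Of 11 tested 1 was called higher and 0 lower, with a median of 0.06. The called gene was Rps3a1, the mouse gene of the small subunit protein Rps3a. Its log2 ratios were 0.53, 0.27 and 0.33 in MUT pools, against -0.14, 0.03 and -0.19 in WT pools, without overlap. The difference was 0.48 ± 0.12, 1.39-fold (limma adjusted p = 0.0195), and the call was lost without WT pool 1 (0.0714) or WT pool 3 (0.0902).

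Other genes of the same translational programme showed larger single changes. Of 15 other genes with TOP messenger RNAs 4 were called higher and 0 lower (14% and 18.9% of all tested genes), with a median of 0.15. These were Hnrnpa1, an RNA-binding splicing factor (0.84 ± 0.16, limma adjusted p = 0.00782), Vim, the intermediate filament vimentin that mesenchymal cells express (0.68 ± 0.16, 0.0194), Nap1l1, a histone chaperone (0.66 ± 0.15, 0.015), and Eif3e, a subunit of initiation factor eIF3 (0.55 ± 0.10, 0.00684). The call of Vim was lost without WT pool 2 (limma adjusted p = 0.0686) or WT pool 3 (0.0853). That of Nap1l1 was lost without WT pool 1 (0.0566) or WT pool 3 (0.0717). Among 30 tested initiation factors 2 were higher and 2 lower, smaller shares than over all tested genes, with a median of 0.06. Subunits of the same eIF3 complex were found on both sides. Eif3m (0.49 ± 0.12) and Eif3k (0.39 ± 0.10) were higher and Eif3l (-0.44 ± 0.10) lower, and Eif2b4, a subunit of the guanine nucleotide exchange factor eIF2B, was lower (-0.39 ± 0.10). None of these 4 calls held in all 6 fits that leave out 1 pool. Without WT pool 3, for example, the adjusted p was 0.0907 for Eif3k, 0.0897 for Eif3m, 0.070 for Eif3l and 0.102 for Eif2b4.

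Ribosome assembly factors leaned to higher values in MUT. Of 42 tested 11 were called higher (26.2%, compared with 14% of all genes) and 1 lower, with a median of 0.25 and 34 positive. The smallest p-values belonged to Rrs1, a nucleolar factor that brings the 5S particle into the large subunit (0.70 ± 0.11, limma adjusted p = 0.00366), Gnl3, the nucleolar GTPase nucleostemin (0.72 ± 0.13), Gar1 (0.60 ± 0.12) and Dkc1 (0.55 ± 0.11), the last pair being subunits of the H/ACA particles that guide pseudouridylation of ribosomal RNA. The log2 ratios of Rrs1 were 0.80, 0.60 and 0.51 in MUT pools, against -0.10, 0.00 and -0.09 in WT pools, far apart. The gene called lower was Polr1d, a subunit shared by RNA polymerases I and III (-0.33 ± 0.09). Without WT pool 3 the adjusted p of Dkc1 was 0.0536. By array the list's median was 0.40, 0.25 and 0.28 in MUT pools, against -0.01, 0.10 and -0.02 in WT pools.

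Of 14 genes that control this programme, 2 were called, both higher, a share close to the 14% of all tested genes, and the list's median was -0.09 (-0.07 relative to all genes). Mycn, a Myc family transcription factor that nephron progenitors express and that drives ribosome synthesis, had log2 ratios of 2.67, 2.49 and 2.51 in MUT pools, against 0.16, 0.73 and 0.18 in WT pools. The MUT pools lay more than a log2 unit above the highest WT pool, WT pool 2, and the difference was 2.20 ± 0.17, or 4.60-fold. Myc had ratios of 1.12, 0.62 and 0.55 in MUT pools, against -0.02, -0.03 and -0.02 in WT pools, a difference of 0.78 ± 0.15. The nephron progenitor marker list, which does not hold Mycn, had array medians of 2.08, 2.02 and 1.54 in MUT pools, against 0.17, 0.12 and 0.15 in WT pools, and its part in these values was not tested.

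The proteins of the mitochondrial ribosome, which are encoded by other nuclear genes and serve only the translation of mitochondrial messenger RNAs, differed in the other direction. Of 77 tested 27 were called lower in MUT and 0 higher (18.9% and 14% of all tested genes), with a median of -0.29 and 8 positive. The array medians were -0.34, -0.34 and -0.33 in MUT pools, against 0.00, -0.11 and 0.00 in WT pools, without overlap. Mrps6 had log2 ratios of -1.64, -1.49 and -1.50 in MUT pools, against -0.15, -0.39 and 0.00 in WT pools, a difference of -1.36 ± 0.13, or 2.57-fold lower in MUT. Mrpl12 gave -0.78 ± 0.12, Mrps16 -0.63 ± 0.10 and Mrps34 -0.60 ± 0.10. Relative to all genes the family's median was -0.28 as reported and -0.22 with median centring. Median centring placed it at 0.03 in itself and left 1 gene called lower. Under the spike-in scaling after loess the median was 0.66, with 23 called higher and 0 lower, so the direction of this family, unlike its place below the median of all genes, changed with the scaling. The difference between the cytosolic and the mitochondrial families was not tested.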

How the data were processed

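Total RNA of 3 MUT and 3 WT pools was measured on 6 two-colour arrays. The files deposited from the scanner give, for both channels, each spot's intensity (median over pixels) and its local background. Per the submitters' processing notes the software was Agilent Feature Extraction, version 10.7.3.1. The authors' deposited value table holds log10 ratios of Cy5 to Cy3 and was used as an alternative, as were the processed signals. Whether a spot is well above background is the files' own mark.

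R 4.3.3 was used with limma (version 3.58.1) and data.table (version 1.17.8), and Python 3.11.15 with pandas (version 2.3.3) and matplotlib (version 3.10.9) for figures. Median signals were background-corrected by normexp with an offset of 50, which draws ratios of dim probes towards 0. Log2 ratios were normalized by loess within each array, with control spots at weight 0. Flagged spots were left out (3 of 1002 member spots over the 6 arrays), and spots of a probe were averaged. Tested probes had that mark in Cy5 on each of the 3 arrays of MUT, of WT or of both, and all 73 tested members were so on all 6 arrays. MUT was compared with WT by lmFit and eBayes, and p-values were adjusted by Benjamini-Hochberg over every tested probe, with 0.05 as the threshold of a call. A gene stands for its brightest tested probe. Values with ± are SD over 3 pools where marked so, and otherwise the SE of this fit. P-values measure the spread between these pools.

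RefSeq accessions, without versions, were matched to a GRCm38.p6 table, which named 27509 probes. The file headers name another build, so coordinates are given only for RefSeq promoters. The members and gene lists were chosen with earlier results of these data known. Named members are the 8 highest and 8 lowest differences, the 6 brightest, paralogs and the 5S particle, with at most 4 called genes with the smallest p of every other list. Of the lists of cell type markers counts and medians are given, and 1 gene in the closing section. A few members taken by this rule are left unnamed and stay in all counts. The median signals replaced the unspecified spot signal of the plan. The scripts were tested on simulated data with the same noise level for every probe. With all 73 tested members raised by 0.3, 6 (8.2%) were called higher, and their median estimate was 0.28. Of 50 other probes changed by 0.25, 1 was recovered. At this size of shift the lack of a call therefore does not show the lack of a difference.

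Other settings tried were other background corrections and normalizations, 2 other filters on dim probes, the deposited table, Cy5 alone, slide row and pool number as blocks, eBayes options, array weights, the mean of a gene's probes, leaving out each pool and, added after seeing the data, spike-in levelling without loess.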

Additional observations from a re-analysis of the deposited data

How the results depend on the processing

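The number of ribosomal protein genes called lower was 0 in each of 21 alternative settings, and their median stayed above those of all genes and of other bright genes in all 21, by 0.07 to 0.38 over all genes. Not all of these settings could change that place, so the 21 are not separate checks of it. Spike-in levelling moves all genes of an array alike. The pool number block, the eBayes trend and robust options and the filter on all arrays left the members' median at 0.11. The median of 0.11 moved beyond the spread between pools only with median centring (0.63), with spike-in controls after loess (1.07) and with spike-in controls without loess (1.27). The count of 1 gene called higher was 36, 70 and 73 under these scalings, 4 with the mean of a gene's probes and 2 with array weights (Rps4x among them). It was 0 with the scanner software's processed signals, the authors' value table, no filter on dim probes, the filter on all arrays and the pool number block. The slide row block is left out of this list, since WT pool 1 alone then stands for WT. Leaving out 1 pool gave 0 to 1 called member (Rps2 without MUT pool 2, Rps4x without MUT pool 3) and medians of 0.10 to 0.17, with 57 to 66 members positive. Over all probes 7602 were called, against 2189 with the slide row as a block, 19258 with spike-in controls after loess, 17055 with them and no loess, and 3847 to 9581 without 1 pool, lowest without WT pool 3 and 4918 without WT pool 1. The share of calls that were higher was 44.1%, against 77.3% with median centring, 98.9% with spike-in controls after loess and 98.4% without loess.

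With median centring all 73 members were positive, the values below 0 turning to 0.29 for Rpl31, 0.36 for Rps29 and 0.25 for Rps27l, for example, none of these called. Uncalled values also turned sign under other settings, such as Rps14 with Cy5 alone (-0.14), and between 53 and 73 members were positive. Genes called before or after turned only under the spike-in scalings. After loess the log2 differences were 0.76 for Rpl31, 0.79 for Rps29 and 0.79 for Rps27l, not called, and 0.81 for Rpl35, 0.86 for Rps19, 0.89 for Rpl41, 0.89 for Rpl8, 0.90 for Rpl13a, 0.93 for Rpl37a, 0.90 for Rpl22l1, 0.52 for Eif3l, 0.56 for Eif2b4, 0.33 for Mrps16, 0.18 for Mrpl12 and 0.36 for Mrps34. Without loess they were 0.93 for Rpl31, 1.00 for Rps29, 0.90 for Rps27l, 1.05 for Rpl35, 1.02 for Rps19, 1.13 for Rpl41, 1.11 for Rpl8, 1.09 for Rpl13a, 1.18 for Rpl37a, 1.04 for Rpl22l1, 0.64 for Eif3l, 0.57 for Eif2b4, 0.0078 for the endothelium marker Egfl7 (-1.03 as reported with loess), 0.37 for Mrps16, 0.24 for Mrpl12 and 0.38 for Mrps34. The cause of the difference between spike-in and gene levels was not tested. Other named genes lost or gained calls without a change of sign. Pool numbers give no pairing in the labels, and deviations of same-numbered MUT and WT pools correlated at 0.143, 0.0723 and 0.197, in each case the best match of that MUT pool. With pool number as a replicate block 7241 probes were called, 0 members higher and 0 lower, and the members' median was 0.11. The single dye orientation, 3 pools in each group and unknown probe sequences limit all of these values.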
